A study of Sus scrofa with 6 samples.

Results

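The platelet-derived growth factor (PDGF) and fibroblast growth factor (FGF) genes described here were 10 of the 32285 genes in the deposited matrices, matched exactly by symbol in all 6 libraries. They were the PDGF ligands Pdgfa, Pdgfb and Pdgfc, the PDGF receptors Pdgfra and Pdgfrb, the FGF ligands Fgf2, Fgf7 and Fgf10, and the FGF receptors Fgfr1 and Fgfr2. Over all kept cells the least counted member was Fgf10, with 476 unique molecular identifiers (UMIs, each standing for 1 captured RNA molecule), and the most counted was Fgfr1, with 21794.

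Each library is called by its label, and the labels describe skin of red duroc pigs, taken as a cell suspension with no sorting. One library is labelled normal and one irradiated. The other 4 are labelled as irradiated skin under a DFO TDDS patch of 1 mg (DFO is deferoxamine, an iron chelator): pretreatment, given for 2 weeks ahead of radiotherapy; continuous, given for 18 weeks overall; acute, given over 12 weeks of recovery; and chronic, given for 4 weeks once recovery had passed. Every gene in the matrices carried a mouse Ensembl identifier. Antibodies that tag mouse cells were counted in 4 libraries and were lacking in pretreatment and continuous, and the series title names an anti-JUN treatment of post-operative adhesions. The labels and the files therefore go against each other, and no difference below is assigned to radiation or to DFO. No age, sex or number of animals is given in the sources used here, and there was 1 library per label, so no comparison between labels has a replicate check.

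Kept cells numbered 1499 in pretreatment and 8916 to 24132 in the others, with 18611144 to 54966435 gene UMIs per library before filtering. The library labelled pretreatment stood apart, with a median of 7040 UMIs per barcode against 1339 to 3023 elsewhere. Pairs of libraries shared 3 to 153 cell barcodes. Cells were placed in classes by marker genes that include no member, and between 62.6 and 80.3% of cells per library received a class. Fibroblast-, keratinocyte-, vascular endothelial-, macrophage or monocyte- and T or NK-like cells reached 50 cells in all 6 libraries. Pericyte or smooth muscle-like cells did so in 4, Schwann-like cells in 3 and adipocyte-like cells in 2. Summed markers of neutrophils within the fibroblast-like class ranged from 551 CPM (a gene's UMIs scaled to all UMIs summed over its class and library) in pretreatment to 6602 in irradiated. All 5 neutrophil libraries held the members at low levels, and the neutrophil-like cells serve below as the class that should lack them.

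PDGFs are dimers of secreted chains that bind 2 receptor tyrosine kinases. The A and C chains act mainly through the alpha receptor, a marker of fibroblasts, and the B chain from endothelium acts through the beta receptor on the pericytes that cover vessels. FGFs bind receptor tyrosine kinases together with heparan sulphate. Fgf7 and Fgf10 are made by mesenchyme and act on the epithelial form of Fgfr2, which supports keratinocyte growth, while Fgf2 has a broad action on Fgfr1 and other receptors.

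Pericyte or smooth muscle-like cells had the highest Pdgfa, the PDGF-A chain. Their UMIs summed to 539 CPM for normal, 799 for irradiated, 644 for continuous and 842 for acute. The lowest of these 4 values lay above every value of the Schwann-like cells, which came next with 91.0 to 208 CPM. Vascular endothelial-like cells (73.5 to 194 CPM), keratinocyte-like cells (58.2 to 127) and macrophage or monocyte-like cells (41.9 to 77.6) followed, each overlapping its neighbour. Fibroblast-like cells held 8.48 to 43.5 CPM. Within the same library keratinocyte-like cells were above fibroblast-like cells in 6 of 6 libraries, by 1.66 ± 0.74 on the log2(CPM + 5) scale (mean ± SD, n = 6, exact two-sided sign-flip permutation test, p = 0.0312, adjusted p = 0.0446 over the 10 class pairs tested). With 6 libraries 0.0312 is the smallest p this test can give, and the adjusted 0.0446 is shared by each pair in which all 6 libraries pointed the same way. With cells thinned to 1000 UMIs the smallest adjusted p was 0.0521, and without the library labelled pretreatment it was 0.0893, so no pair kept its call in either setting. Macrophage or monocyte-like cells held 18.2 to 51.7% of all Pdgfa UMIs, the largest share of any class in each library.

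Pdgfb, the PDGF-B chain, was highest in vascular endothelial-like cells and close to background in fibroblast-like cells. Endothelial values were 332 CPM for normal, 422 for irradiated, 121 for pretreatment, 219 for continuous, 371 for acute and 204 for chronic. All of them lay above every value of any other class. Fibroblast-like cells held 0.320 to 3.25 CPM, and endothelial-like cells exceeded them in 6 of 6 libraries by 5.29 ± 0.43 on the log2(CPM + 5) scale (n = 6, exact sign-flip permutation test, adjusted p = 0.0446). After each cell was thinned to 1000 UMIs, 9.76 to 28.2% of endothelial-like cells held a Pdgfb UMI (35.9 to 51.0% unthinned, median depths 2109 to 4328 UMIs). The share in neutrophil-like cells was 0.0646 to 0.345% (median depths 947 to 2708), and in fibroblast-like cells it was 0 to 0.559% (0.425 to 1.81% unthinned, median depths 4189 to 12298). Keratinocyte-like cells reached 97.6 CPM in irradiated and 12.7 to 47.6 elsewhere, and macrophage or monocyte-like cells held 15.5 to 24.2. Of all Pdgfb UMIs, endothelial-like cells held 22.6 to 59.2% and macrophage or monocyte-like cells 10.6 to 32.9%. The latter held more UMIs than keratinocyte-like cells in every library, and more than endothelial-like cells in chronic (220 against 151).

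Pdgfc, the chain that needs a protease to free its growth factor domain, had no class that stood clear of the others. Pericyte or smooth muscle-like cells had the highest median, 29.4 CPM, but a range of 4.41 to 37.6. Macrophage or monocyte-like cells held 14.5 to 32.8 CPM, fibroblast-like cells 6.88 to 21.1 and keratinocyte-like cells 8.0 to 15.0. Keratinocyte-like cells minus fibroblast-like cells gave -0.19 ± 0.41 on the log2(CPM + 5) scale and were higher in 3 of 6 libraries (exact sign-flip permutation test, adjusted p = 0.344). Macrophage or monocyte-like cells held the largest share of Pdgfc UMIs in every library except normal, 30.7 to 62.8% over the 6.

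Pdgfra, the alpha receptor, was highest in fibroblast-like cells of every library. Fibroblast-like cells held 367 CPM for normal, 310 for irradiated, 453 for pretreatment, 471 for continuous, 302 for acute and 356 for chronic, and no other class had a median above 12.9. They carried 76.1 to 90.1% of all Pdgfra UMIs. After thinning, 24.7 to 37.3% of fibroblast-like cells held a UMI (59.2 to 86.8% unthinned) against 0.0579 to 0.750% of neutrophil-like cells. The exception among other classes was the Schwann-like cells labelled continuous, at 119 CPM, where the 17 UMIs lay in 6 of 66 cells. Summed fibroblast markers in the Schwann-like class were 2772 CPM in continuous, 2619 in acute and 1473 in chronic, and their part was not tested.

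Pdgfrb, the beta receptor, had its highest level in pericyte or smooth muscle-like cells and its next in fibroblast-like cells, and neither range met its neighbour. The pericyte values were 614 CPM for normal, 432 for irradiated, 471 for continuous and 489 for acute. The fibroblast values ran from 112 in acute to 212 in pretreatment. Pericyte or smooth muscle-like cells were above fibroblast-like cells in 4 of 4 libraries, by 1.84 ± 0.29 for Pdgfrb, and fibroblast-like cells were above them in 4 of 4 by 4.32 ± 0.56 for Pdgfra, both on the log2(CPM + 5) scale. With 4 libraries the exact permutation test cannot go below p = 0.125 (adjusted p = 0.139). Vascular endothelial-like cells held 23.2 to 34.1 CPM of Pdgfrb in 5 libraries and 47.4 in pretreatment. Summed pericyte markers in those endothelial sums were also highest in pretreatment, 1128 CPM against a lowest of 265, and their part in the Pdgfrb value was not tested. Fibroblast-like cells carried 53.7 to 79.9% of all Pdgfrb UMIs.

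Fibroblast-like cells with and without Pdgfra were compared for the share with a Pdgfrb UMI. In cells thinned to 1000 UMIs, Pdgfrb was detected in 13.2% of normal fibroblast-like cells with Pdgfra and in 13.4% of those without it. The corresponding pairs were 10.7 and 9.46% for irradiated, 20.4 and 20.8% for pretreatment, and 14.8 and 16.6% for continuous. In acute they were 13.1 and 10.1%, and in chronic 17.2 and 12.5%. The share was thus higher with Pdgfra in 3 of 6 libraries. Many cells counted here as without Pdgfra held a Pdgfra UMI before thinning. In normal, 67.7% of fibroblast-like cells held a Pdgfra UMI unthinned and 30.6% thinned, and in pretreatment 85.6% and 33.4%. The comparison therefore cannot tell whether the receptors go together in the same cells, and no conclusion is drawn from it.

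**Figure D1:**
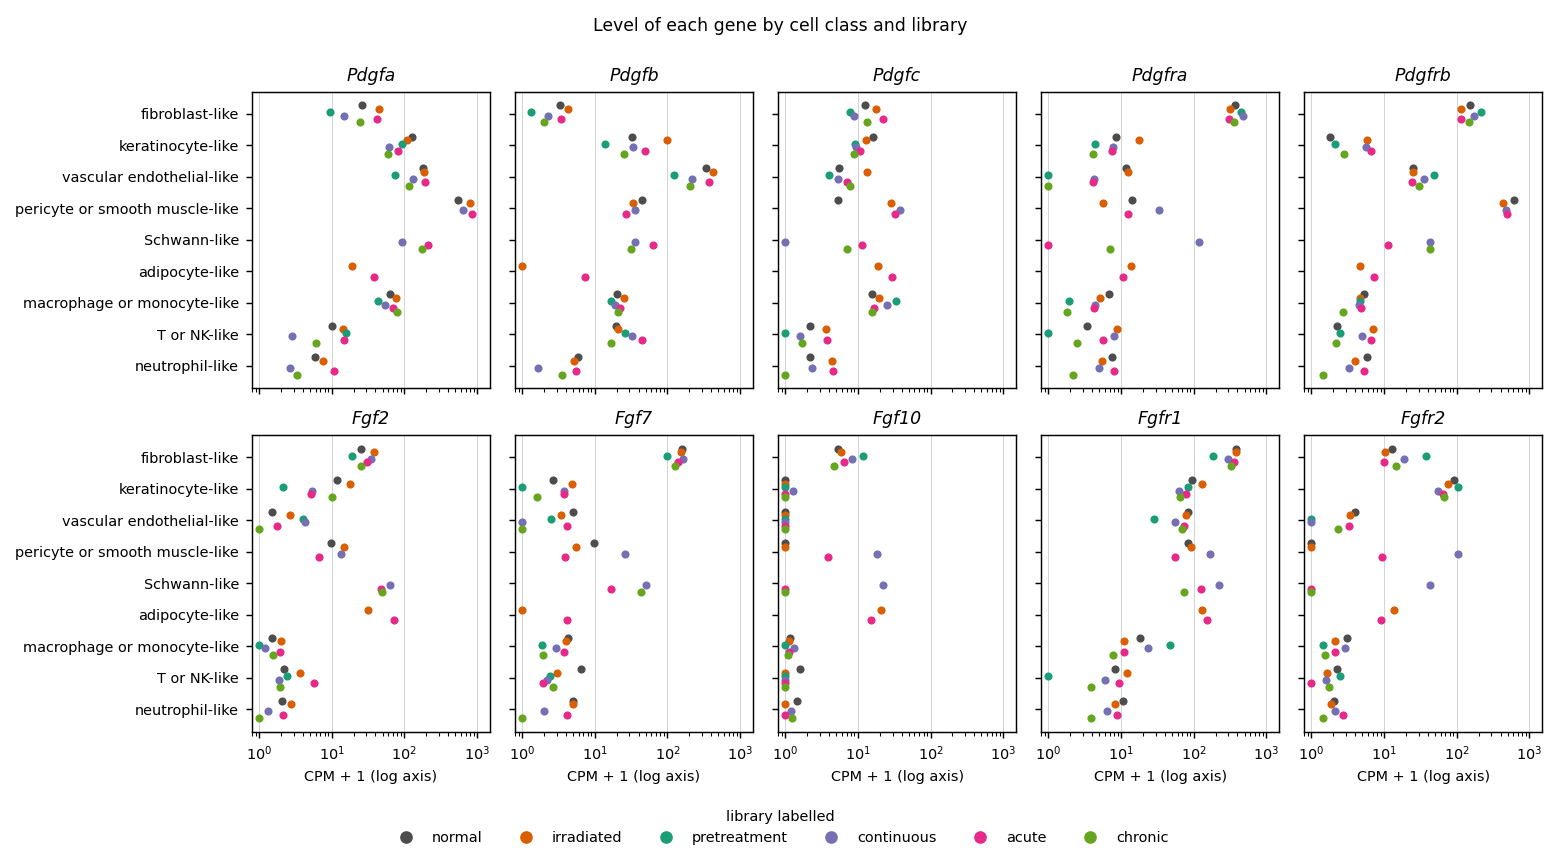
Level of each of the 10 genes (CPM of summed UMIs, log axis) in each marker-defined class, 1 point per library with at least 50 cells of that class. Pericyte or smooth muscle-like cells stand clear for Pdgfa and Pdgfrb, vascular endothelial-like cells for Pdgfb, and fibroblast-like cells for Pdgfra and Fgf7. Fibroblast-like cells for Fgfr1 and keratinocyte-like cells for Fgfr2 have the highest medians, each met or passed by 1 value of another class in the library labelled continuous.

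Fgf7, also called keratinocyte growth factor, was mainly found in fibroblast-like cells. They held 155 CPM for normal, 154 for irradiated, 97.9 for pretreatment, 165 for continuous, 139 for acute and 127 for chronic, above every value of the other classes, and 77.4 to 85.7% of all Fgf7 UMIs. Keratinocyte-like cells held 0 to 3.95 CPM, lower in 6 of 6 libraries by 4.39 ± 0.18 on the log2(CPM + 5) scale (exact sign-flip permutation test, adjusted p = 0.0446). Schwann-like cells had 15.6 to 49.0 CPM. Between 9.67 and 15.2% of thinned fibroblast-like cells held a UMI, against 0 to 0.5% of neutrophil-like cells.

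Fgf10, the other mesenchymal ligand of epithelial Fgfr2, had few UMIs but kept the same side. Fibroblast-like cells held 4.38 CPM for normal (44 UMIs), 4.93 for irradiated (47), 10.7 for pretreatment (67), 7.25 for continuous (39), 5.42 for acute (46) and 3.72 for chronic (11). Keratinocyte-like cells held 1 UMI over all 6 libraries and vascular endothelial-like cells held 0. Fibroblast-like cells were above keratinocyte-like cells by 1.1 ± 0.30 on the log2(CPM + 5) scale in 6 of 6 libraries (exact sign-flip permutation test, adjusted p = 0.0446), a value that the 5 CPM added holds down for so low a gene. Adipocyte-like cells reached 20.0 CPM in irradiated and 14.4 in acute, both above the highest fibroblast value. So did, in continuous, pericyte or smooth muscle-like cells (17.5 CPM, 7 UMIs) and Schwann-like cells (21.0 CPM, 3 UMIs). Fibroblast-like cells held 31.4 to 66.2% of all Fgf10 UMIs. Cells that met no class held more than them in continuous (47.9 against 33.3%) and chronic (48.6 against 31.4%).

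Fgf2, the basic FGF, was spread over adipocyte-, Schwann- and fibroblast-like cells with ranges that overlapped. Adipocyte-like cells held 30.9 CPM in irradiated and 72.0 in acute, and Schwann-like cells 46.9 to 63.0. Fibroblast-like cells held 24.5 CPM for normal, 37.2 for irradiated, 18.2 for pretreatment, 34.0 for continuous, 29.9 for acute and 24.0 for chronic. They were above keratinocyte-like cells (1.15 to 16.8 CPM) in 6 of 6 libraries by 1.47 ± 0.56 on the log2(CPM + 5) scale (exact sign-flip permutation test, adjusted p = 0.0446). After thinning, 1.91 to 3.42% of fibroblast-like cells and 0 to 2.65% of keratinocyte-like cells held a Fgf2 UMI. In normal this order turned, with 2.45% of fibroblast-like cells against 2.65% of keratinocyte-like cells (5 of 189). Nudt6, which overlaps Fgf2 on the other strand, had a median of 1.59 CPM in fibroblast-like cells, with a range of 1.19 to 3.35. Whether counting used the strand is not given in the sources used here, so reads of this pair cannot be fully told apart.

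Fgfr1, the receptor of most mesenchymal cells, was highest in fibroblast-like cells. It stood at 376 CPM for normal, 376 for irradiated, 181 for pretreatment, 295 for continuous, 363 for acute and 327 for chronic. Keratinocyte-like cells held 61.6 to 130.2 CPM and were below fibroblast-like cells in 6 of 6 libraries by 1.85 ± 0.46 on the log2(CPM + 5) scale (exact sign-flip permutation test, adjusted p = 0.0446). Vascular endothelial-like cells held 27.6 to 82.5 CPM and macrophage or monocyte-like cells 6.88 to 46.5. The overlap with the fibroblast range came from Schwann-like cells of the library labelled continuous, at 224 CPM against 125 in acute and 72.7 in chronic.

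Fgfr2, whose epithelial form is the receptor of Fgf7 and Fgf10, had its highest median in keratinocyte-like cells. It stood at 89.8 CPM for normal, 75.5 for irradiated, 102 for pretreatment, 55.2 for continuous, 62.8 for acute and 65.0 for chronic. Fibroblast-like cells held 9.07 to 36.5 CPM, and the keratinocyte value was higher in 6 of 6 libraries by 1.99 ± 0.52 on the log2(CPM + 5) scale (exact sign-flip permutation test, adjusted p = 0.0446). In the library labelled continuous, however, pericyte or smooth muscle-like cells held 102.7 CPM, above every keratinocyte value. Gene sums do not separate the epithelial and mesenchymal splice forms. Between 5.57 and 9.52% of thinned keratinocyte-like cells held a UMI, against 0.698 to 2.42% of fibroblast-like cells and 0.0579 to 0.1% of neutrophil-like cells. Fgf7 and Fgf10 on the one side and Fgfr2 on the other thus had opposite orders between the fibroblast- and keratinocyte-like classes in all 6 libraries.

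**Figure D2:**
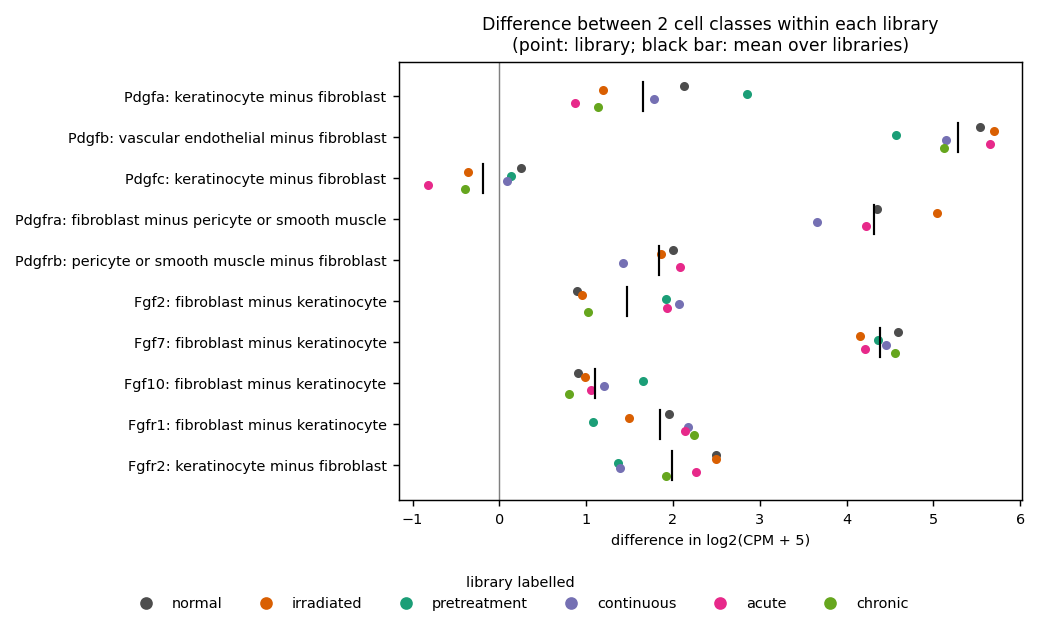
Within-library difference in log2(CPM + 5) for the 10 class pairs, 1 point per library, with a black bar at the mean over libraries. For 7 pairs all 6 libraries lie on the same side of 0, for Pdgfra and Pdgfrb all 4 do, and for Pdgfc 3 of 6 do.

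Within the fibroblast-like class the ligands and Fgfr2 differed between subsets set by markers. Cells with a UMI of Pi16 or Dpp4, markers of adventitial fibroblasts, were 34.5 to 76.6% of the class. Cells with Cxcl5, a neutrophil-attracting chemokine, were 16.6 to 39.0% in 5 libraries, and none fell in this subset in pretreatment. Subsets were set in a fixed order, so a cell with markers of several fell only in the first. A small subset with Wif1, Pappa2, Coch or Slc26a7 was 2.43 to 7.34%. Cells with none of these markers were 13.0 to 24.1%. Their median depth was below that of the Pi16 or Dpp4 subset in every library, with 2268.5 against 4816 UMIs in normal. The part of depth in the subset differences was not tested for every gene.

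Pdgfa was higher in the Cxcl5 subset than in the Pi16 or Dpp4 subset in 5 of 5 libraries, 1.89- to 3.72-fold. Its values in the Cxcl5 subset were 37.6 CPM for normal, 76.1 for irradiated, 34.7 for continuous, 51.7 for acute and 28.9 for chronic. In the Pi16 or Dpp4 subset they were 18.8, 28.1, 9.34, 27.4 and 15.3 in the same order, so every value of the Cxcl5 subset lay above every value of the other. Fgf2 had the opposite order, higher in the Pi16 or Dpp4 subset in 5 of 5 libraries by 1.39- to 5.24-fold. Fgf2 in that subset also exceeded the cells with no subset marker in 6 of 6 libraries, 1.29- to 2.28-fold, and Fgf7 did so in 6 of 6, 1.17- to 2.62-fold.

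Fgfr2 was higher in the Wif1, Pappa2, Coch or Slc26a7 subset, with a median of 42.8 CPM, than in the Pi16 or Dpp4 subset, with 9.13. This held in 5 of 5 libraries, 1.63- to 13.1-fold, from 5 to 17 UMIs per library. Against the cells with no subset marker it was higher in 3 of 5 libraries, and it was slightly lower in pretreatment (54.0 against 55.6 CPM) and continuous (42.8 against 45.7). Pdgfra and Pdgfrb were also above the Pi16 or Dpp4 subset in those 5 libraries. For Pdgfra the gap was small, 1.03- to 1.57-fold. These orders are descriptions of subsets within libraries and carry no test.

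**Figure D3:**
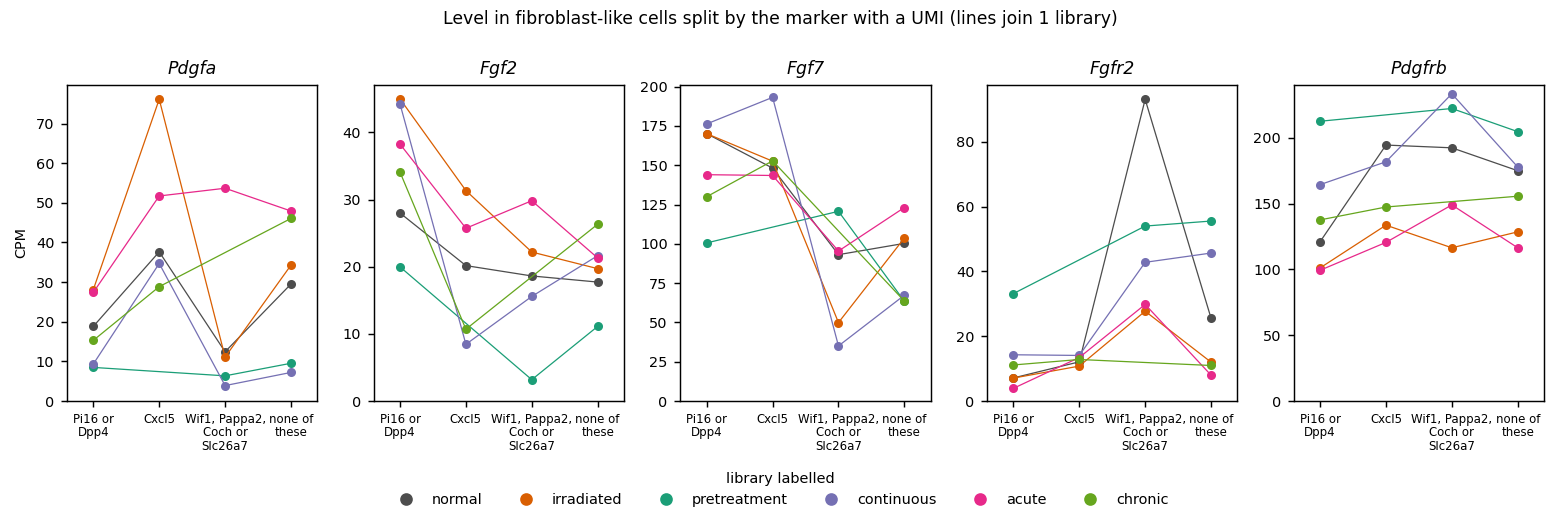
Pdgfa, Fgf2, Fgf7, Fgfr2 and Pdgfrb in subsets of the fibroblast-like class (CPM, linear axis), 1 point per library with at least 20 cells. Pdgfa is higher with Cxcl5 than with Pi16 or Dpp4 and Fgf2 lower, and Fgfr2 is higher with Wif1, Pappa2, Coch or Slc26a7 than with Pi16 or Dpp4 but not above the cells without these markers in pretreatment and continuous.

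Among libraries, the members of the fibroblast-like class differed most between pretreatment and irradiated and least between acute and irradiated. A member was called higher or lower where the ratio of CPM was at least 1.5 and its exact 95% interval left out 1, among genes with at least 20 UMIs over both sums. The intervals cover counting error only and say nothing of the spread between animals. Shares of all tested genes stand beside the counts of a class and of the Pi16 or Dpp4 subset, but not beside counts after thinning. Of the 6 comparisons, 4 share the library labelled irradiated, so their values are given side by side. Across the fibroblast-like comparisons the share of neutrophil markers also moved, lowest in pretreatment as given above, and its part in these ratios was not tested. The neutrophil-like cells, whose members reached 9.93 CPM at most, also differed: against irradiated, 0 of 7 tested members were higher and 4 lower in continuous (5.90% and 39.0% of all tested genes), and 0 of 7 were higher and 6 lower in chronic (8.01% and 16.2%). The members' median log2 ratio in these cells was -1.34 in continuous and -1.94 in chronic, against -0.50 and -0.14 for all tested genes. The part of this shift in the lower calls of other classes was not tested.

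Irradiated against normal, 2 of 10 members were higher and 0 lower, where 4.61% of all tested genes were higher and 5.39% lower. Pdgfa was 43.5 CPM against 25.4 (415 and 255 UMIs), a ratio of 1.71 with an interval of 1.46 to 2.01. Fgf2 was 1.52-fold higher (1.29 to 1.80). The members' median log2 ratio was 0.08 against -0.03 for all tested genes. Within the Pi16 or Dpp4 subset alone, where 4.64% of genes were higher and 5.92% lower, Fgf2 was 1.61-fold higher and Pdgfa was 1.49-fold higher, below the fold used for a call. With cells thinned to 1000 UMIs, the Fgf2 ratio was 1.37 and not called, Pdgfa stayed at 1.66, and 2 other members were called lower.

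Pretreatment against irradiated, 3 of 10 members were higher and 6 lower, where 17.9% of all tested genes were higher and 20.6% lower. The higher members were Fgfr2 (3.95-fold, 3.08 to 5.12), Fgf10 (2.18-fold, 1.48 to 3.23) and Pdgfrb (1.85-fold, 1.70 to 2.00). Those lower were Pdgfa (5.13-fold, 3.85 to 6.97), Pdgfc (2.42-fold, 1.72 to 3.48), Fgfr1 (2.08-fold, 1.94 to 2.22), Fgf2 (2.04-fold, 1.65 to 2.54) and Fgf7 (1.58-fold, 1.43 to 1.74), besides Pdgfb, at 2 against 31 UMIs. The members' median log2 ratio was -0.84 against -0.02 for all tested genes. In the Pi16 or Dpp4 subset (18.8% of genes higher, 18.7% lower) the 3 members were again higher, with Fgfr2 at 4.68-fold, and 5 were lower, with Pdgfb not tested. With cells thinned to 1000 UMIs, 3 members were lower in place of 6, and the Pdgfa ratio was 0.221.

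The library labelled continuous differed from irradiated in 5 members of the fibroblast-like class. There 2 of 10 were higher, Fgfr2 (1.96-fold, 1.45 to 2.64) and Pdgfra (1.52-fold, 1.44 to 1.60), and 3 were lower, where 8.06% of all tested genes were higher and 15.2% lower. The lower members were Pdgfa (3.12-fold, 2.44 to 4.05), Pdgfc (2.14-fold, 1.51 to 3.08) and Pdgfb (2.5-fold, 1.08 to 6.72, on 7 against 31 UMIs). In the Pi16 or Dpp4 subset (9.12% of genes higher, 13.5% lower) the 2 higher members were Fgfr2 and Pdgfrb, and the 2 lower were Pdgfa and Pdgfc. The Pdgfra ratio, close to the fold used, was 1.48 under a stricter class rule and 1.46 without Scrublet doublets, and the Pdgfc ratio was 0.965 after thinning.

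Acute against irradiated, 0 of 10 members were called either way in the fibroblast-like class, where 2.53% of all tested genes were higher and 1.56% lower. Chronic against irradiated, 0 were higher and 2 lower, where 7.40% of all tested genes were higher and 7.34% lower. These were Pdgfa (1.84-fold, 1.42 to 2.40) and Fgf2 (1.55-fold, 1.2 to 2.03). Only Pdgfa of the pair kept its call in the Pi16 or Dpp4 subset, where 9.46% of genes were higher and 7.95% lower. The Fgf2 ratio was 0.989 after thinning.

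The libraries labelled pretreatment and continuous, which both lack the tag antibodies, differed in 5 of the 9 members tested. Fgfr2 was 2.02-fold higher in pretreatment (1.59 to 2.59), and Fgf2, Fgf7, Pdgfa and Fgfr1 were 1.87-, 1.68-, 1.64- and 1.63-fold lower. In this comparison 15.6% of all tested genes were higher and 13.8% lower. In the Pi16 or Dpp4 subset (15.8% of genes higher, 13.1% lower) Fgfr2 and Fgf10 were higher, Fgf2, Fgf7 and Fgfr1 were lower, and the Pdgfa ratio was 0.908 and not called. After thinning the Fgf2 ratio turned to 1.25.

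**Figure D4:**
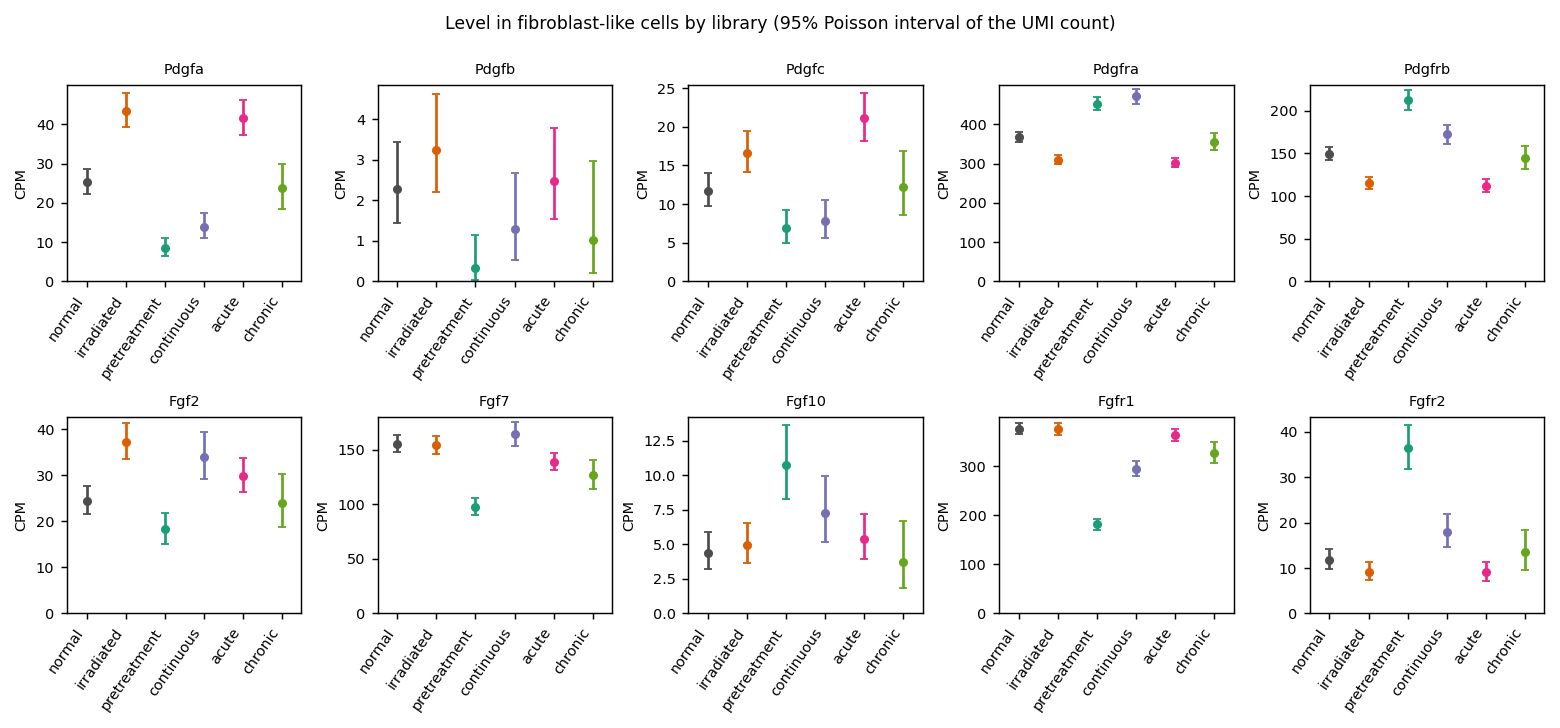
Members in the fibroblast-like class by library (CPM), with exact 95% Poisson intervals that cover counting error only. Fgfr2, Fgf10 and Pdgfrb have their highest value, and Fgfr1, Fgf7, Fgf2 and Pdgfa their lowest, in the library labelled pretreatment.

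In keratinocyte-like cells Pdgfb had its highest level in the library labelled irradiated. It stood at 31.6 CPM for normal (38 UMIs), 97.6 for irradiated (198), 12.7 for pretreatment (11), 33.1 for continuous, 47.6 for acute and 24.6 for chronic. Against normal it was 3.09-fold higher in irradiated (2.18 to 4.50). It was lower than in irradiated by 7.72-fold in pretreatment (4.22 to 15.7), 2.95-fold in continuous, 2.05-fold in acute and 3.97-fold in chronic, 4 ratios that share the irradiated value. Where in this class it lay depends on the order in which keratin subsets were set. With basal keratins first, all 198 UMIs of the irradiated library fell in the basal subset (322 of 335 cells). With differentiation keratins first, a split added after seeing the data, follicle or wound cells held 127.2 CPM in irradiated and differentiating cells 35.0. Summed neutrophil markers in keratinocyte-like cells were 396 CPM in pretreatment, 7225 in continuous and 11170 to 13180 in the other 4 libraries, and their part in the Pdgfb values was not tested. After thinning, the acute over irradiated ratio turned to 1.06, with a Pdgfb UMI in 5.79% of acute and 6.23% of irradiated cells.

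Counts for the keratinocyte-like members ran as follows. Irradiated against normal, 2 of 7 were higher and 0 lower (8.07% and 5.42% of all tested genes). Pretreatment against irradiated, 0 of 7 were higher and 4 lower (17.0% and 27.2%). Continuous against irradiated, 0 of 8 were higher and 5 lower (13.3% and 20.0%). These counts include Pdgfra and Fgf2, which this class held at 34 UMIs or fewer in every library named. Acute against irradiated, 0 of 8 were higher and 4 lower (3.84% and 6.65%), and chronic against irradiated, 0 of 7 were higher and 5 lower (6.42% and 18.6%). After thinning, the Pdgfra ratio turned to 1.4 in acute and the Fgf2 ratio to 1.56 in chronic. Fgfr1 was among the lower members in all 4, by 1.57-, 2.11-, 1.66- and 2.00-fold in the order pretreatment, continuous, acute and chronic. Averaged over cells instead of over UMIs, its ratio turned to 1.02 for pretreatment and 1.03 for acute. Pdgfa was lower in continuous (1.77-fold) and chronic (1.82-fold). Fgfr2 was called in none of these 5 comparisons. Pretreatment against continuous, 2 of 6 were higher, Fgfr2 by 1.86-fold (1.42 to 2.40) and Pdgfa by 1.53-fold, and 1 lower, Pdgfb by 2.62-fold (8.69% and 13.0%).

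Vascular endothelial-like cells had their lowest Pdgfb and Pdgfa in pretreatment and their highest Pdgfb in irradiated. Pretreatment against irradiated, 1 of 4 members was higher and 3 lower (12.9% and 21.2% of all tested genes): Pdgfb was 3.49-fold lower (2.75 to 4.48), Fgfr1 2.85-fold and Pdgfa 2.54-fold, and Pdgfrb was 2.00-fold higher beside the pericyte markers given above. Continuous against irradiated, 0 of 4 were higher and 1 lower, Pdgfb by 1.93-fold (10.2% and 16.4%). Chronic against irradiated, 0 of 5 were higher and 2 lower, Pdgfb by 2.07-fold and Pdgfa by 1.62-fold (6.46% and 10.8%). Pretreatment against continuous, Fgfr1 was lower by 1.95-fold, Pdgfb by 1.81-fold and Pdgfa by 1.8-fold, and Pdgfrb, the other of the 4 tested, was not called. There the members' median log2 ratio was -0.85 against -0.03 for all tested genes. The other comparisons gave few calls. Acute against irradiated, 0 of 5 were called either way (2.37% and 2.44%), and irradiated against normal, 1 of 6 was higher, Pdgfc on 15 against 9 UMIs, and 0 lower (7.0% and 3.80%), and this Pdgfc ratio turned to 0.657 after thinning. Within the class, the Pdgfb of cells with the venular markers Ackr1 or Selp was compared with that of the remaining cells. The ratio of CPM was 0.850 in normal, 0.816 in irradiated, 0.670 in continuous and 0.871 in chronic, but 1.13 in acute. In pretreatment it was 0.740 on 11 marked cells, fewer than the 20 asked of a subset. These ratios carry no test, so whether such modest gaps exceed counting error was not tested.

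**Figure D5:**
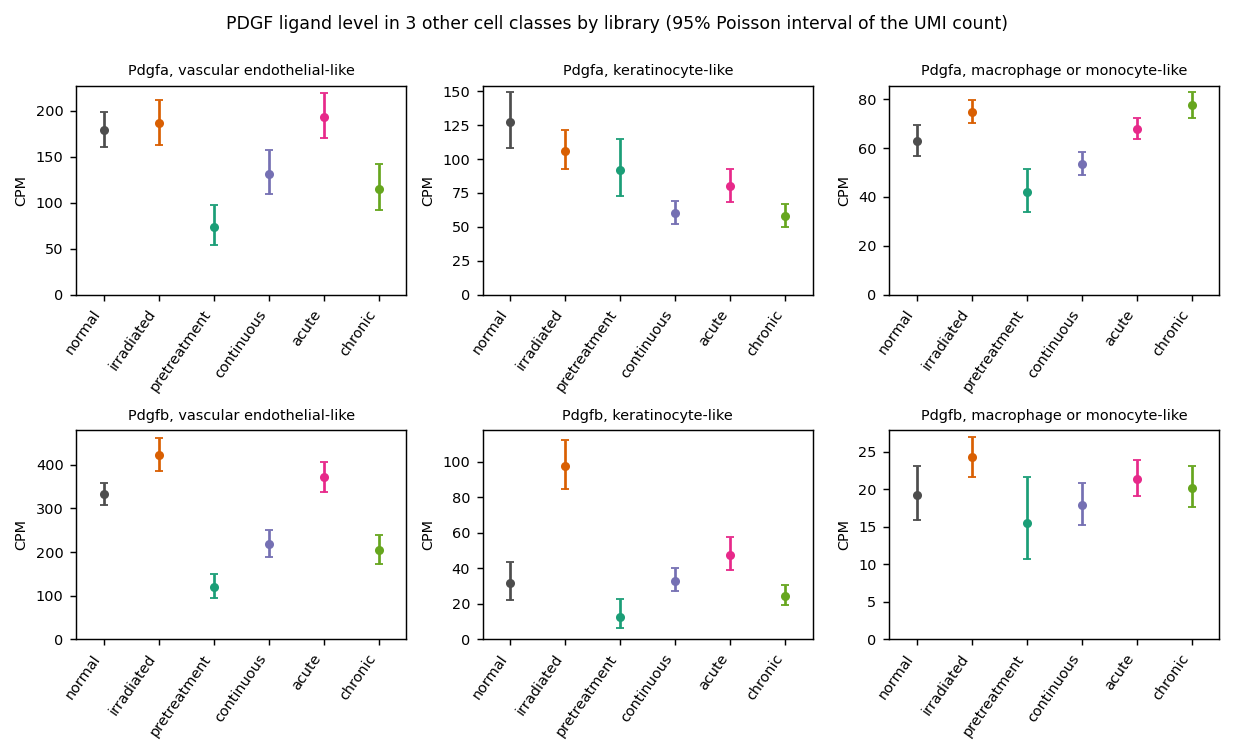
Pdgfa and Pdgfb by library in vascular endothelial-, keratinocyte- and macrophage or monocyte-like cells (CPM), with exact 95% Poisson intervals that cover counting error only. Pdgfb is highest in the library labelled irradiated in each of these classes. In macrophage or monocyte-like cells it is 24.2 CPM there against 15.5 to 21.3 elsewhere.

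In macrophage or monocyte-like cells Fgfr1 was called in 3 of the 5 comparisons with or against irradiated. It stood at 17.1 CPM for normal, 10.0 for irradiated, 46.5 for pretreatment, 22.8 for continuous, 10.2 for acute and 6.88 for chronic. It was 1.70-fold lower in irradiated than in normal, where 0 of 8 members were higher and 1 lower (4.70% and 5.81% of all tested genes). Pretreatment against irradiated, 2 of 7 were higher and 3 lower (24.6% and 15.3%). The higher ones were Fgfr1 (4.63-fold, 3.55 to 6.04) and Pdgfc (1.80-fold, 1.36 to 2.34), and the lower ones Pdgfa (1.79-fold), Pdgfb (1.56-fold) and Pdgfra, at 2 against 56 UMIs, whose ratio turned to 1.55 after thinning. Continuous against irradiated, 1 of 8 was higher, Fgfr1 by 2.27-fold, and 0 lower (14.7% and 14.2%). Acute against irradiated, 0 of 9 were called (1.77% and 1.52%), and chronic against irradiated, 0 of 9 were higher and 3 lower (8.83% and 8.44%), namely Pdgfra, Pdgfrb and Fgf7, all at or below 4.16 CPM in both libraries. Neutrophil-like cells held these 3 at 3.04 to 4.55 CPM in irradiated and were also lower in chronic.

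Pericyte or smooth muscle-like cells held an isolated Fgfr2 value in the library labelled continuous. There it stood at 102.7 CPM, from 41 UMIs in 9 of 74 cells with 10 in a single cell, against 0 UMIs in normal and irradiated and 8.53 CPM in acute. That is at least 7.46-fold higher than in irradiated, taking a floor of 3 UMIs for the latter sum. Summed keratinocyte markers in the same pericyte sums were 301 CPM in continuous against 53.0 to 91.0 elsewhere, and their part was not tested. Continuous against irradiated, 2 of 6 members were higher, the other being Fgfr1 (1.83-fold, 1.1 to 3.18), and 0 lower (9.09% and 13.3% of all tested genes). Of the 67 Fgfr1 UMIs in continuous, 30 lay in a single cell, against at most 3 per cell among the 20 UMIs in irradiated. The Fgfr1 ratio thus rests in large part on 1 cell, which its interval does not take into account.

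The rest of both pathways was followed in fibroblast-like cells through a list of 54 further genes: other ligands, receptors and co-receptors, ligand-activating proteases, adaptors, and feedback inhibitors and targets. Irradiated against normal, 2 of 37 tested genes were higher and 1 lower. These were Etv4, a transcription factor induced by FGF signalling (2.08-fold), Sdc4, a heparan sulphate co-receptor (1.63-fold), and Fgf11, an FGF homologue that stays inside the cell (2.5-fold lower). Of all tested genes 4.61% were higher and 5.39% lower. Acute against irradiated, only the ERK phosphatase Dusp6 was called of 36, 1.70-fold higher, where 2.53% of all tested genes were higher and 1.56% lower.

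Pretreatment against irradiated, 13 of 41 of these genes were higher and 11 lower, against the 17.9% and 20.6% of all genes given above. Fgfr4, another FGF receptor, was 27.4 CPM against 0.524 (171 and 5 UMIs), and it was 21.0-fold higher than in continuous as well. Etv4 was 8.41-fold lower and Fgf23, a circulating FGF best known from bone, 5.44-fold lower. By role, 2 of 2 other PDGF genes were higher and 0 lower, 4 of 9 receptors and co-receptors were higher and 3 lower, and 3 of 4 FGF-binding and activating proteins were lower and 0 higher. Of the 9 feedback inhibitors and targets 2 were higher and 4 lower, and 0 of 8 adaptors were called.

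Continuous against irradiated, 5 of 35 of these genes were higher and 4 lower, where 8.06% of all tested genes were higher and 15.2% lower. Fgf23 was 33.6 CPM against 8.70, 3.87-fold higher, and Fgf9, a ligand with several receptors, was 3.77-fold higher on 17 against 8 UMIs. Flrt3, a membrane protein that binds FGF receptors, was 2.94-fold lower and Plau, the urokinase protease, 2.47-fold lower. Chronic against irradiated, 2 of 33 were higher, with Fgf18 at 2.06-fold, and 5 lower, with Etv4 at 2.99-fold and Plau at 1.96-fold, where 7.40% of all tested genes were higher and 7.34% lower. Between pretreatment and continuous, 11 of 39 were higher in pretreatment and 8 lower, where 15.6% of all tested genes were higher and 13.8% lower.

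The genes most like each member were sought among 14069 others over 52 sums of 11 classes. The sums of a library share its depth and cell mixture, so Pearson's r of log2(CPM + 5) is a description. Pdgfra was most like Fbn2 (r = 0.930), Tspan11 and Scara3, and Fgf7 most like Col14a1 (0.932), Olfml3 and Dclk1. For Pdgfrb the closest were Runx1t1 (0.944), Pde3a and Naalad2, for Fgfr1 Sh3pxd2a (0.897), Nfix and Nenf, and for Fgfr2 Ppl (0.925), Cntfr and Irx2. Fgf2 was closest to Entpd2 (0.901), Mir100hg and Mme, and Fgf10 to St6galnac5 (0.941), Prr16 and Rai2. The ligands of the PDGF family had lower best values, with Pdgfa closest to Kifc3 (0.864), Pdgfb to Rapgef5 (0.819) and Pdgfc to Epb41l1 (0.811).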

How the data were processed

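Each deposited matrix gives raw UMI counts by gene and barcode, and its header names Cell Ranger 6.0.0. The submitters' processing notes name Cell Ranger, Seurat 5.0.1 and the pig build Sscrofa11.1. The mouse build and annotation are not given in the sources used here. Tag antibodies were left out of gene totals, and as no source links them to animals each matrix is 1 sample.

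Cells were kept with at least 500 UMIs, 300 genes and at most 20% mitochondrial UMIs. A marker counted as hit at 1 or more UMIs and a share of the cell's UMIs of at least 0.2 times its pooled 99th percentile. A cell took the class with the largest share of markers hit, given at least 3 markers and 1.5 times each other class. This setting was chosen on class sizes, before member values. Between 2.39 and 4.19% of cells met several classes and were left out as mixed, and removing Scrublet doublets was an alternative. Classes with at least 50 cells were used. UMIs were summed per class and library.

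The members and all lists were chosen with earlier results of these data known. Genes were named by rule: all 10 members, at most 2 extremes of the pathway list each way, the 3 most alike genes, and Nudt6. The ratio and permutation code was tested on simulated data. Tools were Python 3.11.15, numpy 2.4.6, scipy 1.17.1, pandas 2.3.3, scanpy 1.11.5 and matplotlib 3.10.9.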

Additional observations from a re-analysis of the deposited data

How the results depend on the processing

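Of the 10 class pairs, 7 passed an adjusted p of 0.05 in the exact permutation test, and 7 did so in the 5 settings other than the next ones. With cells thinned to 1000 UMIs, 0 passed the exact permutation test (smallest adjusted p 0.0521, 6 pairs at an unadjusted p under 0.05). Without the library labelled pretreatment 0 passed as well, with 0 at an unadjusted p under 0.05, since 5 libraries cannot go below an exact p of 0.0625 (smallest adjusted p 0.0893). The Pdgfc pair changed sign after thinning, to 0.081. Each of the 7 pairs kept the direction of its mean difference in both settings.

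Counts of called members in fibroblast-like cells moved as follows. Except for the Pi16 or Dpp4 restriction, the share of all tested genes called under each setting is not given. The counts therefore show how the calls moved and have no background to be set against. Thinning gave 1 member higher and 2 lower in irradiated against normal, 3 lower in pretreatment, 1 lower in continuous and 1 lower in chronic against irradiated, and 0 higher and 2 lower in pretreatment against continuous. Averaging over cells gave 1 lower in irradiated against normal, 1 lower in acute against irradiated, and 0 higher and 1 lower in pretreatment against continuous. The stricter class rule gave 1 higher in irradiated against normal, 1 higher in continuous against irradiated and 2 higher in pretreatment against continuous. Without Scrublet doublets, 1 member was higher in continuous against irradiated. This removal was uneven, taking 20.4% of irradiated and 25.2% of acute cells but 1.27 to 10.0% in the other libraries. In normal, pretreatment and chronic, Scrublet's own threshold flagged 0 to 0.361% of cells and a fallback was used. A fold of 2 gave 0 higher in irradiated against normal and in continuous against irradiated, and 0 lower in chronic against irradiated and in pretreatment against continuous. The restriction to cells with Pi16 or Dpp4, chosen after seeing the data, gave 1 higher in irradiated against normal, 1 lower in chronic against irradiated and 2 higher in pretreatment against continuous. Of the fibroblast ratios over all settings, 305 moved within their interval, 45 moved further and 1 turned. Median levels were also set again for the fibroblast subsets after thinning and for a keratinocyte subset under the other order. Of these levels, 45 stayed within 1 SD over libraries and 5 moved further.

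Thinning turned the ratio of Fgf2 in pretreatment over continuous fibroblast-like cells (1.25), Pdgfc in irradiated over normal endothelial-like cells (0.657), Pdgfra in pretreatment over irradiated macrophage or monocyte-like cells (1.55), Pdgfb (1.06) and Pdgfra (1.4) in acute over irradiated keratinocyte-like cells, and Fgf2 in chronic over irradiated keratinocyte-like cells (1.56). Averaging over cells turned Fgfr1 in keratinocyte-like cells for pretreatment (1.02) and acute (1.03) over irradiated, and Pdgfra in macrophage or monocyte-like cells for pretreatment over irradiated (1.31). The cause of these turns was not tested. No paired analysis was possible because each label had 1 library. At 1000 UMIs per cell, members under about 10 CPM rest on few UMIs, which limits what can be told apart.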
